A study of Mus musculus with 12 samples.

Results

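The trophectoderm is the outer epithelium of the blastocyst, and its descendants form the placenta. The genes described here are 9 transcription factors that are known for specifying or maintaining that lineage: Cdx2, Elf5, Gata2, Gata3, Tfap2a, Tfap2c, Hand1, Ascl2 and Tead4. They were picked by name, and each was read from the probe set that carries its symbol alone. These 9 genes stand among 19938 genes with such a probe set, each member had 1 such probe set, and 6 of the 9 were bright enough to be tested beside 12988 genes in all.

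In the embryo, the DNA-binding protein TEAD4 with the coactivator YAP1 switches on Cdx2 in the outer cells when Hippo signalling is low, and GATA3 acts beside CDX2. TFAP2C, ELF5 and CDX2 maintain trophoblast stem cells, and GATA2, HAND1 and ASCL2 act in their differentiated descendants. Embryonic stem cells (ESCs) come from the inner cell mass and normally give rise to trophectoderm poorly. Several members also work outside the placenta: GATA2 and GATA3 in blood, nervous system and ectoderm, TFAP2A and TFAP2C in neural crest and surface ectoderm, HAND1 in mesoderm, and TEAD4 in many tissues. None of these genes alone marks trophectoderm.

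The cells were R1, an established mouse ESC line, and 12 samples of its total RNA were each read on an Affymetrix array of mouse genes. Smarcd1, which encodes the BAF60a subunit of the SWI/SNF chromatin remodelling complex, had been knocked down in lines named KD1 and KD2, and control cells had been infected with a scrambled construct. Undifferentiated cells grew with serum and leukemia inhibitory factor (LIF) on mitomycin-treated mouse fibroblast feeders: scrambled (2 arrays), KD1 (2) and KD2 (2). Differentiated cells had 1 µM retinoic acid for 4 days without LIF: scrambled (2) and KD1 (4). Below, a change with retinoic acid means this whole change of culture. Retinoic acid, the loss of LIF and the days of differentiation cannot be told apart. KD2 cells given retinoic acid were not analysed here. The labels speak of knockdown and control clones, so a line may stand for a single clone, and they do not say whether feeders were removed before RNA extraction. The replicates are called biological without a word on separate cultures, so a p-value here covers only the spread from array to array, and that spread may be technical.

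Smarcd1 itself read 8.67 and 8.68 (log2) on the undifferentiated scrambled arrays and 7.75 and 7.78 on the KD1 arrays. The 2 arrays labelled KD2 disagreed: replicate 1 read 8.56, near the controls, and replicate 2 read 7.16. After retinoic acid the scrambled arrays read 8.84 and 8.64 and the 4 KD1 arrays 6.36 to 6.61, a difference of -2.26 ± 0.28 (limma log2 change ± SE, adjusted p = 0.000152). Statements on KD2 below therefore rest on 1 array with a lowered target and 1 whose target level goes against its label. The core pluripotency list checked the labelled cell state: all 8 of its genes were called lower after retinoic acid in scrambled cells, and 7 of the 8 in KD1 cells. Of all tested genes, 16.7% were called lower in scrambled and 21.4% in KD1 cells. Klf4 was not called in KD1 cells, though its arrays there also lay lower after retinoic acid. It read 9.31 and 9.08 before and 8.15 to 8.70 after in KD1 cells, against 5.47 and 5.35 in scrambled cells after. The KD1 arrays after retinoic acid split in pairs for some of these genes: Nanog read 4.14 and 4.71 on replicates 1 and 2 and 7.14 and 6.94 on replicates 3 and 4, and Sox2 6.35 and 6.35 against 7.84 and 7.70. All values below are deposited log2 summaries, and they are compared only within a gene, since different probe sets do not share a scale. A gene was called changed at a Benjamini-Hochberg adjusted p under 0.05 over the 12988 tested genes. A gene was tested if it lay above the 40th percentile of its array, which was 4.46 to 4.63, on at least 2 arrays. In these bulk samples, fewer cells of a type and less RNA per cell cannot be told apart.

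Gata2 and Gata3 were the members with the largest rise under retinoic acid, so their promoters are printed here. The sequences are the 250 bases before each start in RefSeq (GRCm38.p6), read 5′ to 3′ on the gene's strand. Gata2 has an upstream start on chromosome 6, plus strand (chr6:88193641-88193890), and a downstream one (chr6:88198414-88198663), and Gata3 lies on chromosome 2, minus strand (chr2:9878601-9878850). Capitals mark the TEAD motif GGAATG, here read on the opposite strand.
Gata2 upstream start: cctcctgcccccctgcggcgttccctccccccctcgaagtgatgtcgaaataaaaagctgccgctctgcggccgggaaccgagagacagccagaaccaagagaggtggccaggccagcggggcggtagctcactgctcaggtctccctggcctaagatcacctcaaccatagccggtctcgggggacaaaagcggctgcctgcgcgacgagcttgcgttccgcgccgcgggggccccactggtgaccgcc
Gata2 downstream start: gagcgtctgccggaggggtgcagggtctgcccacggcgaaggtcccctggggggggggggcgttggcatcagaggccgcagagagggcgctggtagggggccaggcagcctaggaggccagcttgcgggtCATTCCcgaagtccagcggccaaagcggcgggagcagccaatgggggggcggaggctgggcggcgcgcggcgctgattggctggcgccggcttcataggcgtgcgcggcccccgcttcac
Gata3: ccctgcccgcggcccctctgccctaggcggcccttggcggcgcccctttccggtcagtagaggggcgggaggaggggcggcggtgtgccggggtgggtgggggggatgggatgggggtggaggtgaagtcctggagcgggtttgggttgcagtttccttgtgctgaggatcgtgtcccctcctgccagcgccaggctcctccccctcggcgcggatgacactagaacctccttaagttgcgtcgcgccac
Both strands were searched for 3 short motifs, over these bases and the 50 that follow the start. The retinoic acid receptor half-site AGGTCA occurs in 16.3% of the 32851 promoter windows of the same length, the GATA motif AGATAA in 11.2% and the TEAD motif GGAATG in 14.7%. The downstream Gata2 window holds 1 TEAD motif, at base -120 from the start, and the other Gata2 window and the Gata3 window hold none of the 3. A match is only a description of letters, and a window without one says nothing about the factor. RefSeq windows were at hand for 6 of the 9 members, namely Cdx2, Elf5, Gata2, Gata3, Tfap2a and Ascl2.

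Cdx2, Elf5, Tfap2a and Ascl2 gave signals near or under the dim filter in undifferentiated cells. Cdx2, above it on 8 of the 12 arrays, encodes the caudal-type homeobox factor whose forced expression turns ESCs into trophoblast stem cells. Its undifferentiated arrays read 4.64 and 4.56 (scrambled), 4.45 and 4.62 (KD1), and 4.45 and 4.48 (KD2), and its retinoic acid arrays 4.80 and 4.76 (scrambled) and 4.56, 4.98, 4.73 and 4.86 (KD1). Both scrambled arrays after retinoic acid lay above their undifferentiated pair, both KD2 arrays lay below both undifferentiated scrambled ones, and the other groups compared overlapped. The whole span over the 12 arrays was 0.53. With retinoic acid, Cdx2 differed by 0.18 in scrambled cells (95% interval -0.18 to 0.54, adjusted p = 0.431) and by 0.25 in KD1 cells (-0.06 to 0.56, adjusted p = 0.166), neither past the threshold. Cyclic loess scaling (0.45, adjusted p = 0.0258) and median centring (0.52, adjusted p = 0.0193) did bring the difference in KD1 past it. Between KD1 and scrambled cells after retinoic acid, Cdx2 differed by 0.00 (interval -0.31 to 0.31).

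Elf5, the ETS-family factor that locks in trophoblast stem cell fate, lay between 3.44 and 3.77 and was under the filter on all 12 arrays. Tfap2a, an AP-2 factor of ectoderm and trophoblast, was also under it on every array: it read 3.69 and 3.53 in undifferentiated scrambled cells, 4.07 and 3.90 in scrambled cells after retinoic acid, and 3.53 to 3.81 in KD1 cells after it. Ascl2, the basic helix-loop-helix factor needed for spongiotrophoblast, lay between 3.67 and 4.47 and passed the filter on 1 array. These 3 genes were therefore not tested. With the filter dropped, none was called in any of the 7 contrasts. Of the 3, Tfap2a came nearest, with 0.37 ± 0.13 for retinoic acid in scrambled cells (adjusted p = 0.0683).

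Hand1, the basic helix-loop-helix factor of trophoblast giant cells, passed the filter on every array but hardly moved. The undifferentiated arrays ran from 4.94 to 5.09. After retinoic acid the scrambled arrays read 4.88 and 4.81 and the KD1 arrays 4.92, 5.23, 4.88 and 5.02. The differences were -0.17 with retinoic acid in scrambled cells (interval -0.52 to 0.18), -0.02 in KD1 cells (-0.32 to 0.28) and 0.17 between KD1 and scrambled cells after it (-0.13 to 0.47). The sign of the first 2 turned under other scalings, and none was called under any setting.

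**Figure D1:**
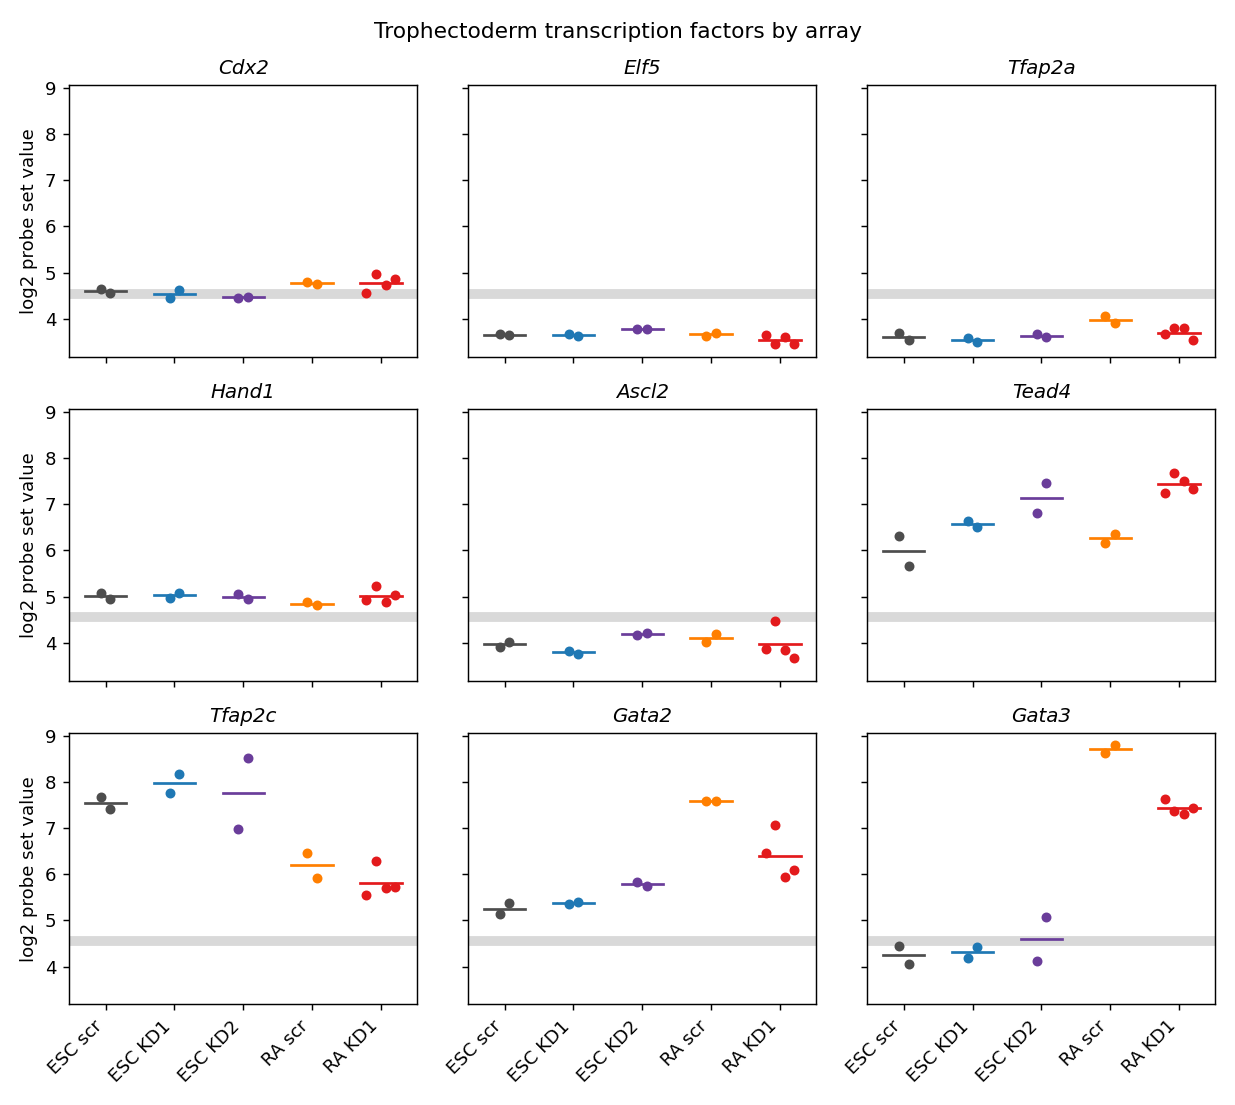
Each panel plots the log2 value of 1 transcription factor on each of the 12 arrays, in the 5 groups, with a bar at the group mean and a gray band at the dim filter (4.46 to 4.63). Gata2 and Gata3 stand high in both retinoic acid groups and highest in scrambled cells, Tfap2c stands lower after retinoic acid, Tead4 is highest in KD1 after it, and Elf5, Tfap2a and Ascl2 lie under or at the band.

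Gata3 was the member that rose most with retinoic acid. Its zinc-finger product is among the earliest trophectoderm factors and also acts in several ectodermal and blood lineages. Undifferentiated arrays read 4.44 and 4.05 (scrambled), 4.18 and 4.43 (KD1), and 4.11 and 5.07 (KD2), so only KD2 replicate 2 lay above the filter. The scrambled arrays reached 8.64 and 8.80 after retinoic acid, and the KD1 arrays 7.63, 7.37, 7.31 and 7.44. All 6 retinoic acid arrays were above all 6 undifferentiated ones, and the 4 KD1 arrays were below both scrambled ones. Because Gata3 passed the filter almost only through the retinoic acid arrays, its test there was bound to find a difference. The sizes are limited too, since every undifferentiated scrambled and KD1 array lay under the filter. The folds below, and their comparison between the lines, depend on that dim starting level. The rise was 4.48 ± 0.27 in scrambled cells (limma, 22.3-fold, adjusted p = 5.82e-07) and 3.13 ± 0.23 in KD1 cells (8.77-fold, adjusted p = 1.03e-06).

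Gata2, a related zinc-finger factor of trophoblast giant cells and of early blood and nervous system, followed the same order from a higher start. It read 5.13 and 5.38 on the undifferentiated scrambled arrays, 5.35 and 5.40 on KD1 and 5.84 and 5.74 on KD2. After retinoic acid it read 7.60 and 7.59 in scrambled cells and 6.46, 7.07, 5.94 and 6.09 in KD1 cells. All the retinoic acid arrays lay above the undifferentiated arrays, and the KD1 arrays were again below both scrambled ones but spread over more than 1 log2 unit. The rise was 2.34 ± 0.29 in scrambled cells (5.07-fold, adjusted p = 8.64e-05) and 1.02 ± 0.25 in KD1 cells (2.02-fold, adjusted p = 0.00562).

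Tfap2c, the AP-2 gamma factor shared by trophoblast stem cells, germ cells and naive pluripotent cells, went the other way. Undifferentiated arrays read 7.67 and 7.41 (scrambled), 7.76 and 8.18 (KD1), and 6.99 and 8.51 (KD2). After retinoic acid the scrambled arrays read 6.47 and 5.93 and the KD1 arrays 5.55, 6.29, 5.70 and 5.74. Every retinoic acid array lay below every undifferentiated one, and the scrambled and KD1 arrays overlapped after treatment. Tfap2c fell by 1.34 ± 0.41 in scrambled cells (adjusted p = 0.0219) and by 2.15 ± 0.35 in KD1 cells (adjusted p = 0.000372). Where leaving out an array leaves 1 in its group, here and below, that array is assumed to vary like those of the other groups. The call in scrambled cells was lost without scrambled replicate 1 (adjusted p = 0.116) or 2 (0.0577), without retinoic acid scrambled replicate 2 (0.156), and with median centring (0.0753). The difference between KD1 and scrambled cells after retinoic acid was -0.38 (interval -1.15 to 0.40).

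In counts, retinoic acid moved 3 of the 6 tested members in scrambled cells, 2 up (Gata2, Gata3) and 1 down (Tfap2c), where 39.1% of all tested genes were called (22.4% higher, 16.7% lower). In KD1 cells it moved 4 of 6, 3 up (Gata2, Gata3, Tead4) and 1 down (Tfap2c), against 50.8% of all tested genes (29.4% higher, 21.4% lower). Without Gata3, whose calls here were bound to be found, 1 of 5 rose and 1 fell in scrambled cells. In KD1 cells 2 of 5 rose and 1 fell. So broad a response called about as large a share of all genes as of these few members. The median change over the tested members was 0.23 in scrambled and 0.56 in KD1 cells, against 0.06 and 0.06 over all tested genes. Median centring of the arrays shifted the median of all genes by 0.18 in scrambled and by 0.27 in KD1 cells. It also turned the calls from 57.4% higher to 69.5% higher in scrambled cells and from 57.9% to 74.9% in KD1 cells. The changes of Gata2 and Gata3 were larger than those shifts, also in KD1 cells.

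After retinoic acid, the comparison of KD1 with scrambled cells called 3 of the 6 tested members, 1 higher and 2 lower, against 22.7% of all tested genes (11.2% higher, 11.5% lower). Gata2 was lower by -1.20 ± 0.25 (2.30-fold, adjusted p = 0.00487) and Gata3 by -1.28 ± 0.23 (2.43-fold, adjusted p = 0.00191), while Tead4 was higher by 1.17 ± 0.22 (2.26-fold, adjusted p = 0.00269). These 3 calls held in all 26 settings tried, the study's 12 arrays left out 1 at a time among them. The size for Gata2 ranged from -1.58 with KD1 replicates 3 and 4 alone to -0.83 with replicates 1 and 2 alone, the same pairs that Nanog and Sox2 separate, and the part of that split in the Gata2 values was not tested. The median over the tested members was -0.19, against -0.02 over all tested genes.

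Whether retinoic acid acted to a different degree in KD1 was tested directly, as the change in KD1 minus the change in scrambled cells. This difference was -1.34 ± 0.35 for Gata3 (adjusted p = 0.0393), and it was past the threshold in 11 of 26 settings, with adjusted p from 0.000886 to 0.177. For Gata2 it was of like size, -1.33 ± 0.39, and missed the threshold (interval -2.17 to -0.48, adjusted p = 0.0590). Without any 1 of the arrays of undifferentiated scrambled, undifferentiated KD1 or retinoic acid scrambled cells, or without KD1 replicate 2, 3 or 4 of the retinoic acid arrays, the Gata3 call was lost. The Gata2 difference passed without KD1 replicate 2 of the retinoic acid arrays (adjusted p = 0.00664) and without either KD2 array (0.0357). Tead4 differed by 0.59 (interval -0.16 to 1.34), Tfap2c by -0.81 (-1.99 to 0.37), Hand1 by 0.15 (-0.31 to 0.61) and Cdx2 by 0.07 (-0.40 to 0.55). So 1 of the 6 tested members was called, lower, where 7.88% of all tested genes were (4.27% higher, 3.61% lower). With median centring the share of those calls that were higher went from 54.2% to 64.5%, and no member was called.

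**Figure D2:**
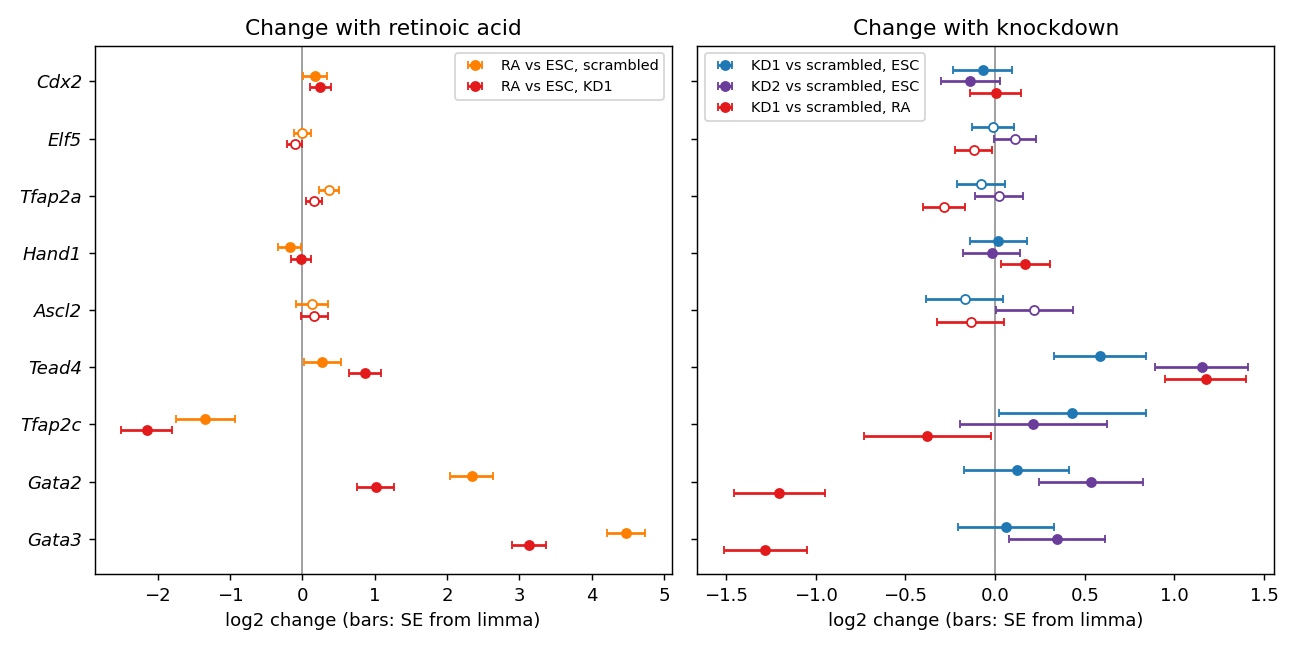
The log2 change of each of the 9 transcription factors is plotted with its SE from limma as a bar, for retinoic acid in scrambled and KD1 cells on the left and for the knockdowns against scrambled cells on the right. Hollow symbols mark members under the dim filter, fitted with no filter; Gata3 and Gata2 lie far right of 0 for retinoic acid and left of 0 for KD1 against scrambled cells after it, and Tead4 lies right of 0 there.

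Tead4 was the only member higher in KD1 cells after retinoic acid, and the only one called in an undifferentiated comparison. It read 6.32 and 5.65 in undifferentiated scrambled cells, 6.64 and 6.50 in KD1 and 6.81 and 7.47 in KD2. After retinoic acid it read 6.17 and 6.36 in scrambled cells and 7.25, 7.67, 7.50 and 7.32 in KD1 cells. All arrays labelled as knockdown lay above all 4 scrambled arrays, with or without retinoic acid, though the undifferentiated scrambled pair differed by 0.67. Among them, KD2 replicate 1 read 6.81 for Tead4 while its Smarcd1, at 8.56, was near the controls. How many of all tested genes separate the arrays in this way was not counted. Retinoic acid raised Tead4 in KD1 cells by 0.87 ± 0.22 (adjusted p = 0.00705), a call lost without undifferentiated KD1 replicate 2 (adjusted p = 0.0668). In scrambled cells the change was 0.28 (interval -0.29 to 0.84).

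In undifferentiated cells, none of the 6 tested members was called by limma in KD1 against scrambled cells, where 2.32% of all tested genes were (0.909% higher, 1.41% lower). At an unadjusted p under 0.05 there was 1, Tead4, at 0.59 ± 0.26 (adjusted p = 0.368). Smarcd1 itself, the knocked-down gene, missed the limma threshold too, at -0.91 ± 0.33 in KD1 (adjusted p = 0.230). In KD2 it was -0.81 ± 0.33 (adjusted p = 0.152). A missing call in undifferentiated cells therefore does not show that a gene was unchanged. In KD2 against scrambled cells 1 of 6 was called, Tead4, higher by 1.15 ± 0.26 (2.22-fold, adjusted p = 0.0166), against 10.0% of all tested genes (2.88% higher, 7.15% lower). That call was lost without scrambled replicate 2 (0.82, adjusted p = 0.174), with array weights (adjusted p = 0.584) and in a fit of the compared arrays alone (0.417). Without the array labelled KD2 replicate 1, whose Smarcd1 was near control level, Gata3 (0.83, adjusted p = 0.00882) and Tfap2c (0.97, adjusted p = 0.0325) were called as well. That fit takes the spread from the other groups, since 1 KD2 array is left, and it called 34.4% of all tested genes, with 56.2% of the calls higher against 28.7% with both arrays. Without KD2 replicate 2 instead, the differences were -0.13 for Gata3 and -0.55 for Tfap2c, so their direction rests on which array is kept. KD2 against KD1 called no member, against 2.70% of all tested genes (0.508% higher, 2.19% lower), and 1 had an unadjusted p under 0.05, again Tead4. Cyclic loess scaling turned the share of those calls that were higher from 18.8% to 29.7%. Without that same array, Gata3 (0.76, adjusted p = 0.0129) and Tead4 (0.90, adjusted p = 0.0195) were called, again from 1 KD2 array with the spread of the other groups, where 35.0% of all tested genes were called. Without KD2 replicate 2 they differed by -0.19 and 0.23. Median changes over the tested members were 0.09 for KD1, 0.28 for KD2 and 0.13 between the lines, against -0.00397, -0.0178 and -0.0112 over all tested genes.

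TEAD proteins need the coactivators YAP1 and WWTR1, which the Hippo kinases keep out of the nucleus, so the partners of Tead4 were read from a list of 15 measured genes, all tested. Between KD1 and scrambled cells after retinoic acid, 5 of the 15 were higher and 1 lower, with a median of 0.23 (3 to 6 higher with 1 array left out, fewest without retinoic acid scrambled replicate 1). In this comparison 11.2% of all tested genes were higher and 11.5% lower. Ccn2 and Ccn1, secreted matrix proteins widely used as YAP target genes, were higher by 2.42 ± 0.19 (adjusted p = 4.38e-06) and 1.04 ± 0.19 (adjusted p = 0.00204). Ccn2 read 8.82 and 9.31 in scrambled and 11.21 to 11.71 in KD1 cells, as undifferentiated cells of both kinds had read 10.88 to 11.03. With retinoic acid it fell by 1.87 ± 0.22 in scrambled cells and changed by 0.53 ± 0.19 in KD1 cells, a difference of 2.41 ± 0.29 (adjusted p = 0.000416). The change in KD1 was no longer called without either undifferentiated KD1 array or without retinoic acid KD1 replicate 3 or 4. Vgll4, which competes with YAP1 for TEAD, was lower (-1.22 ± 0.18, adjusted p = 0.000481). The coactivators themselves did not pass: Yap1 differed by 0.00 ± 0.16 and Wwtr1 by 0.24 ± 0.20.

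Retinoic acid raised 7 and lowered 2 of the 15 Hippo genes in scrambled cells (median 0.37) and raised 12 in KD1 cells (median 1.07, 10 to 13 with 1 array left out). Of all tested genes, 22.4% rose and 16.7% fell in scrambled cells, and 29.4% rose and 21.4% fell in KD1 cells. Vgll4 rose most in scrambled cells (3.12 ± 0.21), followed by the kinase gene Lats2 (1.99 ± 0.16), and in KD1 cells Lats2 rose by 2.16 ± 0.13 and Amotl1 by 1.84 ± 0.20. In undifferentiated cells Amot, an angiomotin gene of this list, was lower in both lines. It read 7.77 and 6.29 in scrambled cells, 4.89 and 5.17 in KD1 and 4.51 and 4.70 in KD2, with both knockdown pairs under both controls. The differences were -2.0 ± 0.38 for KD1 (adjusted p = 0.0215) and -2.43 ± 0.38 for KD2 (adjusted p = 0.00299). The KD1 call was lost without scrambled replicate 1 or either KD1 array, and Amot was the only gene of the list called there. In KD2, Vgll4 (0.75 ± 0.21) and Lats2 (0.63 ± 0.16) were called higher. The Lats2 call was lost without either scrambled array, and the Vgll4 call without scrambled replicate 2, KD2 replicate 1, either undifferentiated KD1 array, either retinoic acid scrambled array, or retinoic acid KD1 replicate 2 or 4. Both comparisons use the same scrambled arrays. Of all tested genes, 2.32% were called for KD1 and 10.0% for KD2.

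The members belong to families whose other genes mark other germ layers, and within the families the direction differed. Of 15 measured paralogs 11 were tested, and after retinoic acid 3 were higher and 5 lower in KD1 than in scrambled cells (median -0.19). The shares over all tested genes were 11.2% higher and 11.5% lower. Among the GATA genes, Gata4 and Gata6, which act in endoderm and heart, were higher in KD1 than in scrambled cells. Gata2 and Gata3 were lower. Gata4 read 6.47 and 6.30 in scrambled cells and 10.45, 10.57, 11.05 and 10.82 in KD1 cells, a difference of 4.34 ± 0.17 (adjusted p = 4.92e-08). Gata6 was higher by 1.91 ± 0.23, and it was also the paralog called in undifferentiated KD1 cells (1.66 ± 0.27, adjusted p = 0.0106), a call lost without scrambled replicate 2 or either KD1 array. Gata5, a cardiac and gut gene, was lower in KD1 (-0.98 ± 0.20, adjusted p = 0.00378).

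Tead2 and Tead3 went against Tead4, while Tead1 leaned the same way without passing the threshold. Tead1 read 10.11 and 10.40 in scrambled and 10.69 to 10.76 in KD1 cells after retinoic acid. Tead2, abundant in neural precursors, read 9.94 and 10.03 in scrambled and 8.61 to 8.92 in KD1 cells after retinoic acid, and Tead3 was likewise lower there. The differences were -1.19 ± 0.23 for Tead2 (adjusted p = 0.00289) and -0.97 ± 0.18 for Tead3 (adjusted p = 0.00251), and Tead1 did not pass (0.47 ± 0.25, adjusted p = 0.220). The Tead3 call was lost without retinoic acid scrambled replicate 2 (-0.68, adjusted p = 0.0578). In the AP-2 family, Tfap2b, a neural crest and kidney gene, read 5.79 and 5.68 in scrambled cells after retinoic acid and 3.34 to 3.65 on the other 10 arrays, KD1 after retinoic acid included. It passed the filter through those 2 arrays alone, so the difference of -2.26 ± 0.13 (adjusted p = 4.87e-07) was bound to be called. Hand2, the cardiac and limb relative of Hand1, read 6.05 and 6.43 in scrambled and 5.09 to 5.25 in KD1 cells, a difference of -1.06 ± 0.14 (adjusted p = 0.000220). Elf3, the epithelial relative of Elf5, read 5.45 and 5.52 in scrambled and 6.94 to 7.63 in KD1 cells, a difference of 1.85 ± 0.28 (adjusted p = 0.000643).

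**Figure D3:**
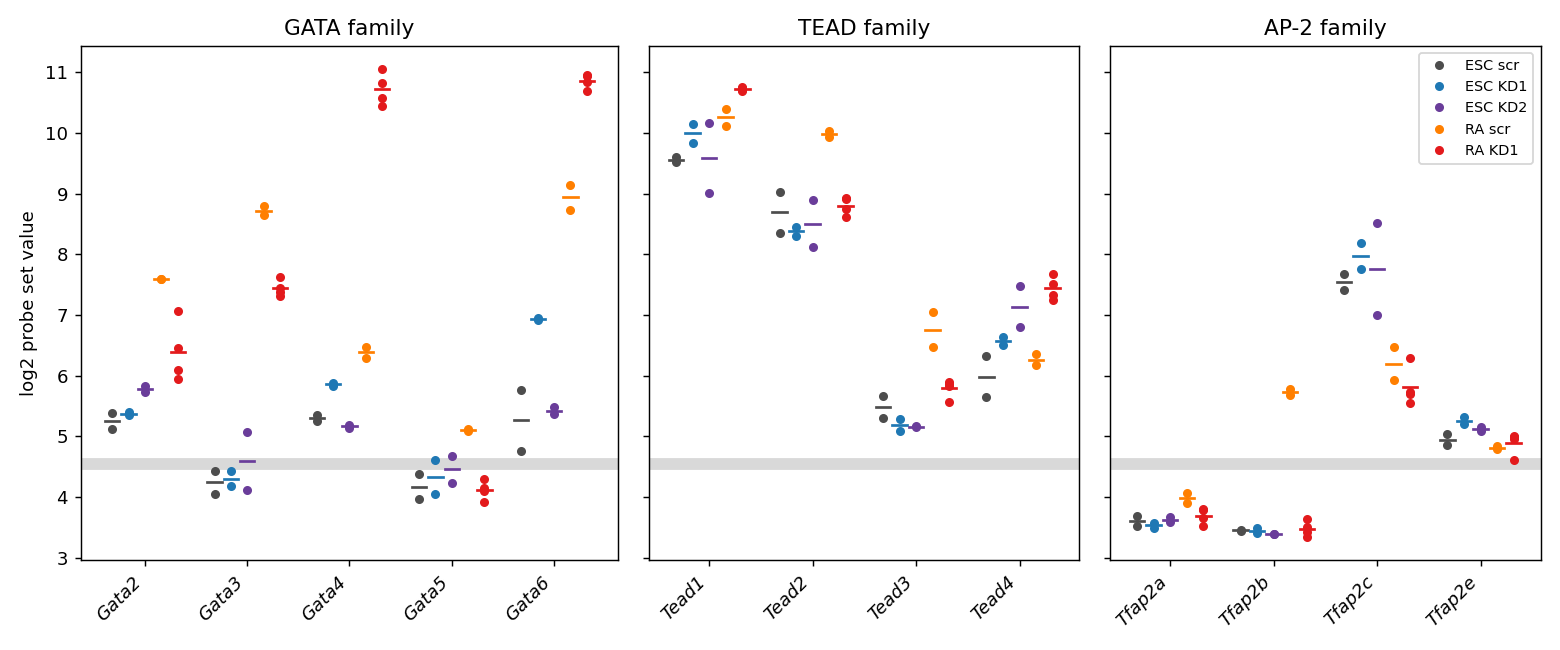
Log2 probe set values of the GATA, TEAD and AP-2 genes are plotted by array in 3 panels, coloured by group, with a bar at the group mean and a gray band at the dim filter, and only values of the same gene share a scale. After retinoic acid Gata4, Gata6 and Tead4 stand higher in KD1 than in scrambled cells, and Gata2, Gata3, Gata5, Tead2, Tead3 and Tfap2b stand lower.

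Endoderm genes showed the larger difference. Of the 7 measured endoderm transcription factors, all tested, 6 were higher in KD1 than in scrambled cells after retinoic acid, with a median of 2.92 (5 to 6 with 1 array left out), where the trophectoderm members had 1 of 6 higher and 2 lower with a median of -0.19. Sox7 (4.35 ± 0.42), Gata4 (4.34 ± 0.17), Sox17 (3.29 ± 0.21) and Foxa2 (2.92 ± 0.21) had the largest differences. Foxa1 went the other way without being called, at 5.93 and 5.64 in scrambled and 4.88 to 5.37 in KD1 cells. Of all tested genes, 11.2% were higher and 11.5% lower in this comparison. Sox17, the HMG-box factor of definitive and primitive endoderm, read 5.88 and 5.46 in scrambled and 8.56 to 9.23 in KD1 cells. From undifferentiated to retinoic acid arrays, 5 of the 7 were called higher in scrambled cells (median 1.01). In KD1 cells 6 of the 7 were (median 3.92). Foxa1, among them in both, passed the filter only through the retinoic acid arrays and 1 other. Of all tested genes, 22.4% were called higher in scrambled and 29.4% in KD1 cells. The lists were chosen with these results known, so the counts describe them and test nothing. Gata4 and Gata6 were also counted among the paralogs.

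Genes that work beside the members in trophoblast stem cells were more often lower than higher in KD1. Of 13 tested regulators, 2 were higher and 7 lower in KD1 than in scrambled cells after retinoic acid (median -0.55). Over all tested genes, 11.2% were higher and 11.5% lower. The number lower depended on single arrays, from 1 to 7 with 1 array left out and fewest without retinoic acid scrambled replicate 1, where Id2 and Sox2 were no longer called. Id2, an inhibitor of basic helix-loop-helix factors, read 10.62 and 10.35 in scrambled and 8.70, 8.90, 7.71 and 8.04 in KD1 cells (-2.15 ± 0.46, adjusted p = 0.00540). Fgfr2, the receptor for the FGF4 that maintains trophoblast stem cells, was lower (-1.78 ± 0.26, adjusted p = 0.000504), and so was Sox2 (-1.75 ± 0.39, adjusted p = 0.00653), which ESCs use as well. Klf5, a Krüppel-like factor of blastocyst and ESCs, read 6.97 and 7.42 in scrambled and 8.54 to 9.47 in KD1 cells (1.88 ± 0.28, adjusted p = 0.000526).

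With retinoic acid, 5 of these 13 rose and 5 fell in scrambled cells, and 2 rose and 4 fell in KD1 cells. Among all tested genes 22.4% rose and 16.7% fell in scrambled cells, and 29.4% rose and 21.4% fell in KD1 cells. Esrrb (-4.25 ± 0.37) and Tet1 (-3.25 ± 0.27), which ESCs share with trophoblast stem cells, had the largest falls in scrambled cells. Eomes, the T-box factor that stands nearest to Cdx2 in the lineage, passed the filter on 2 undifferentiated arrays and read 5.96 and 4.31 in undifferentiated scrambled cells. Its difference of -1.17 ± 0.40 with retinoic acid in scrambled cells (adjusted p = 0.0379) rests on the first of those arrays, without which it was -0.34 (adjusted p = 0.395), and the call was also lost without either undifferentiated KD1 array, either retinoic acid scrambled array, or retinoic acid KD1 replicate 2 or 3. Bmp4, a ligand used to drive stem cells toward trophoblast, was higher in undifferentiated KD1 (1.78 ± 0.33, adjusted p = 0.0189) and KD2 (1.81 ± 0.33, adjusted p = 0.00623), comparisons that share their controls and were no longer called without scrambled replicate 2 or, for KD1, without either KD1 array.

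Among 11 genes of the trophectoderm epithelium, the simple keratins rose with retinoic acid, which they do in many epithelia. In scrambled cells 5 rose and 5 fell (median -0.46), led upward by Krt19 (3.39 ± 0.67), Krt7 (3.28 ± 0.37) and Krt18 (3.22 ± 0.38), and in KD1 cells again 5 rose and 5 fell (median -0.02). Of all tested genes, 22.4% rose and 16.7% fell in scrambled cells, and 29.4% rose and 21.4% fell in KD1 cells. Aqp3, a water channel of the blastocyst wall, fell by 2.77 ± 0.42 in scrambled and by 5.11 ± 0.37 in KD1 cells. Between KD1 and scrambled cells after retinoic acid 2 were higher and 2 lower, against 11.2% and 11.5% of all tested genes. Atp1b1, a sodium pump subunit used in blastocoel filling, was higher (2.24 ± 0.26), as was the desmosomal Dsp (0.54 ± 0.15), the latter not without either retinoic acid scrambled array or without KD1 replicate 1 or 2. Cdh3, placental cadherin, was lower (-2.48 ± 0.31), and Aqp3 too (-1.60 ± 0.37), but not without retinoic acid scrambled replicate 2. In undifferentiated KD2, 1 was higher and 4 were lower than in scrambled cells. Among the lower were Krt18 (-1.83 ± 0.38) and Krt8 (-1.50 ± 0.35), neither of them called without scrambled replicate 1. The call of Cdh3, also lower, was lost without scrambled replicate 2 (-1.36). In that comparison 2.88% of all tested genes were higher and 7.15% lower.

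Of 19 measured genes of the later placenta, 10 were tested, and 9 lay above the filter on at most 1 array, among them the spongiotrophoblast markers Tpbpa and Tpbpb and the labyrinth genes Ctsq and Synb. Retinoic acid raised 7 and lowered 1 of the 10 in scrambled cells (median 1.23), and raised 5 and lowered 2 in KD1 cells (median 0.75), with 4 to 7 and 3 to 6 raised when 1 array was left out. Of all tested genes, 22.4% rose and 16.7% fell in scrambled cells, and 29.4% rose and 21.4% fell in KD1 cells. Peg10, an imprinted retrotransposon-derived gene of placenta and embryo, read 8.53 and 8.05 before and 11.61 and 11.76 after in scrambled cells (3.40 ± 0.23), and 11.11, 11.02, 10.46 and 10.64 in KD1 cells after. Plac1 (2.84 ± 0.34), the kinase gene Nrk (2.50 ± 0.24) and the homeobox gene Rhox9 (1.75 ± 0.44) also rose in scrambled cells, Rhox9 not without undifferentiated scrambled replicate 1 (adjusted p = 0.0513). Plac1 passed the filter only through the retinoic acid arrays, and Nrk through those and 1 other, so their calls with retinoic acid were bound to be found. In KD1 against scrambled cells after retinoic acid none was higher and 3 were lower (median -0.75): Rhox9 (-1.42 ± 0.38, adjusted p = 0.0187), Peg10 (-0.87 ± 0.20, adjusted p = 0.00863) and Syna (-0.72 ± 0.22, adjusted p = 0.0363). None of these 3 calls held without either retinoic acid scrambled array, that of Syna was also lost without KD1 replicate 1, 3 or 4, and with 1 array left out 0 to 6 of the 10 were lower. In this comparison 11.2% of all tested genes were higher and 11.5% lower. Rhox9 read 8.49 and 8.46 in scrambled and 6.90, 8.23, 6.64 and 6.45 in KD1 cells, so KD1 replicate 2 lay near the controls.

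**Figure D4:**
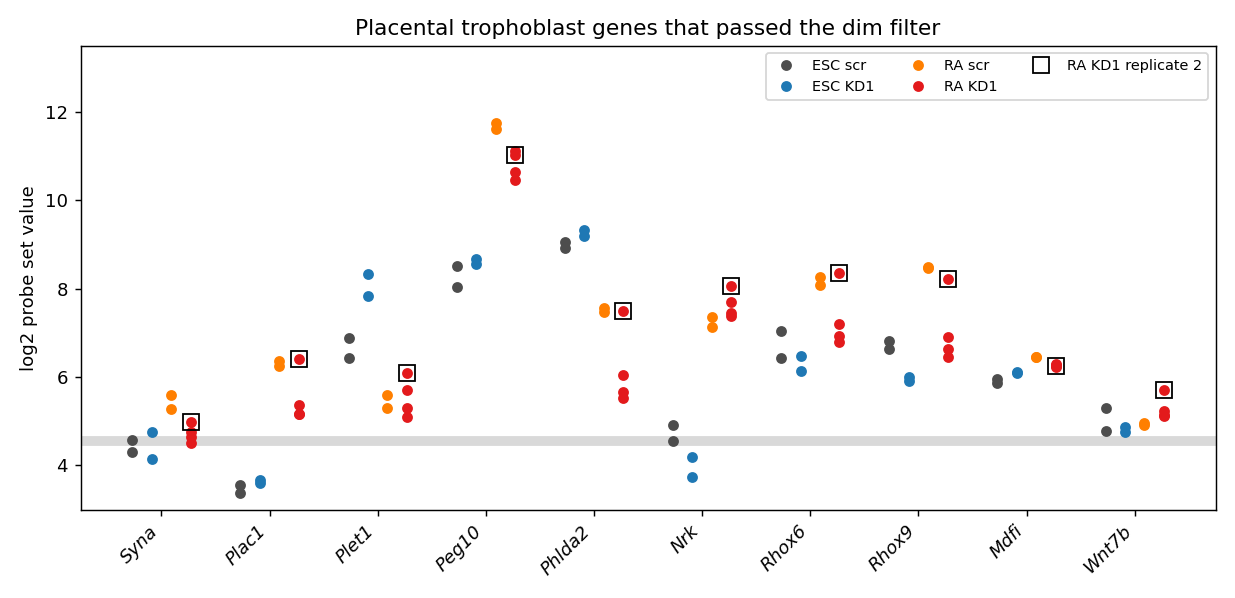
Log2 probe set values of the 10 tested placental genes are plotted by array for scrambled and KD1 cells with and without retinoic acid, with a gray band at the dim filter and a box around KD1 replicate 2 after retinoic acid. Peg10, Plac1, Nrk and Rhox9 stand higher after retinoic acid in both lines, and the boxed array lies apart from the other KD1 arrays for several genes, such as Rhox9 (8.23 against 6.45 to 6.90).

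Several markers of other cells, like Gata2 and Gata3, were lower in KD1 than in scrambled cells after retinoic acid. In this comparison 11.2% of all tested genes were higher and 11.5% lower. Summed levels of 13 measured feeder and fibroblast genes (log2 of the sum) ran from 13.18 to 13.53 in scrambled and from 12.20 to 12.76 in KD1 cells after retinoic acid, with 11 to 12 of them above the filter and Lum under it on every array. Acta2 and Tagln had the highest values of this list after retinoic acid and so weigh most in the sum. Acta2 read 12.07 and 12.30 in scrambled and 11.09 to 11.81 in KD1 cells, and Tagln 10.86 and 10.89 against 10.52 to 11.04. The sum therefore does not measure the amount of feeder cells. Of the 12 tested genes of the list, 6 were lower and none higher. For 12 neural crest and surface ectoderm genes the sums were 9.65 to 9.71 in scrambled and 8.64 to 8.90 in KD1 cells, with 7 to 9 above the filter and Krt5 under it on every array. Of the 10 tested, 5 were lower and none higher, but Tfap2b and Dlx5 passed the filter only because they were high in scrambled cells, and without them 3 of 8 were lower. For 9 lateral and cardiac mesoderm genes the sums were 8.77 to 8.95 and 8.27 to 8.48, with 5 to 6 above the filter and Mesp1 and Tbx5 under it on every array. Of the 7 tested, 4 were lower and 1 higher. Isl1, lower, passed the filter through the scrambled arrays alone, and Tbx20, higher, through the KD1 arrays alone, and without these bound calls 3 of 5 were lower and none higher. The part of these cells in the lower Gata2 and Gata3 values was not tested. Hand2 and Gata5 of the mesoderm list and Tfap2b of the neural crest list were also counted among the paralogs, so these counts are not independent. In undifferentiated cells the feeder sums were 11.46 to 11.70 in scrambled, 10.30 to 11.17 in KD1 and 10.49 to 10.81 in KD2.

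The genes nearest to each called member in pattern were found by the root mean square difference between group means over the 5 groups, each gene centred on its own mean. Heg1 (0.104), Abat (0.107) and Phactr2 (0.111) lay nearest to Gata2. For Gata3 the distances were wider, with Zadh2 (0.197), Cdh6 (0.235) and Ecm1 (0.271). Slc4a11 (0.0636), Ngfr (0.0710) and Ulk1 (0.0880) lay nearest to Tfap2c, and Fam78a (0.136), Ckap4 (0.143) and Pdzd2 (0.175) to Tead4. With 5 points from 12 arrays, such likeness is a description of the group means.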

How the data were processed

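The deposited values of 12 arrays are log2 probe set summaries. The authors made them with RMA, per the submitters' processing notes, with a version and settings not given in the sources used here. RMA tends to compress differences of dim and of very bright probe sets. Of 35556 probe sets, 21789 carried 1 gene symbol in the platform's gene table, 1621 several and 12146 none or no entry. Each of 19938 genes was read from its probe set with the highest mean, and 21698 of the single-symbol probe sets matched RefSeq by Entrez ID. Groups and replicate numbers follow the sample titles. The number of arrays limits the precision.

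With limma 3.58.1 (lmFit and eBayes, two-sided, no block) in R 4.3.3, 1 mean per group was estimated from all 12 arrays, on the 12988 genes above the 40th percentile of their array on at least 2 arrays, with 7 contrasts. P-values were Benjamini-Hochberg adjusted over those genes and called under 0.05. Changes are given ± SE. Tables and plots used Python 3.11.15, pandas 2.3.3, numpy 2.4.6 and matplotlib 3.10.9, and the fit was tested on simulated data.

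The members, the gene lists and the tests were chosen with earlier results of these data known. All 9 members are named, up to 4 genes of each other list with the largest change past the threshold in a comparison, and the 3 genes nearest in pattern to each called member. Paralogs and list genes named beyond that were chosen after their values were seen. Alternatives were no or a 60th-percentile filter, a threshold of 0.01, median centring or cyclic loess of the arrays, array weights, an intensity trend, the compared arrays alone, no KD2 array, the mean of probe sets, a replicate block, KD1 replicates 1 and 2 or 3 and 4 alone after retinoic acid, and each array left out. Promoters come from RefSeq (GRCm38.p6). Genome coordinates of probe sets were not used here.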

Additional observations from a re-analysis of the deposited data

Results flagged for a closer look

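Among the transcription factors of the trophectoderm, the response of Gata3 to retinoic acid differed between the lines by a direct test: the change in KD1 minus the change in scrambled cells was -1.34 on the log2 scale. By the same test, and with the same sign convention, the response was larger or less negative in KD1 for Gata4 (3.78), Elf3 (1.82), Ccn2 (2.41), Ccn1 (1.28), Amot (1.85), Klf5 (1.57), Krt8 (1.66), Atp1b1 (1.76), Nrk (1.18), Sox7 (3.82), Sox17 (3.10) and Foxa2 (2.81). It was smaller or more negative for Gata5 (-1.14), Tfap2b (-2.25), Hand2 (-1.14), Vgll4 (-1.39), Bmp4 (-2.70), Aqp3 (-2.34) and Peg10 (-1.20). Each of these passed an adjusted p under 0.05 over all tested genes. Tfap2b entered the test only through the 2 scrambled retinoic acid arrays where it is high, so its call was bound to be found. Gata4, Hand2, Ccn2, Bmp4, Sox7, Sox17 and Foxa2 also passed with any 1 array left out, as did Tfap2b within that limit, and the others did not.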

How the results depend on the processing

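The calls of Gata2, Gata3 and Tead4 between KD1 and scrambled cells after retinoic acid kept their direction and side of the threshold in every setting run. The signals of Elf5, Tfap2a and Ascl2, under the dim filter, limit what can be said of them. The replicate numbers did not pair the arrays: correlations of same-numbered deviations ran from -0.183 to 0.243. With the replicate block, 0 members were called for KD2 against scrambled cells and 0 for the difference in response, against 1 each. For KD2 against scrambled cells 0 were also called with array weights, with only the arrays compared and at 0.01, and 0 to 3 when leaving out 1 array. For KD2 against KD1, leaving out 1 array gave 0 to 2. For the difference in response the count was 0 with no filter, with median centring, at 0.01 and with KD1 replicates 1 and 2 only, 2 with array weights, with only the arrays compared and without either KD2 array, and 0 to 2 when leaving out 1 array.

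Signs that turned belonged to differences that were not called in the main fit. Those of Gata3 and Tfap2c in the KD2 comparisons were not small once 1 KD2 array was left out. Median centring gave -0.00095 for Gata3 and -0.045 for Hand1 in undifferentiated KD1, 0.00997 for Cdx2 and 0.045 for Hand1 in KD2 against KD1, and for Hand1 under retinoic acid 0.0095 in scrambled and 0.25 in KD1 cells. Cyclic loess gave -0.058 for Hand1 in undifferentiated KD1 and 0.16 under retinoic acid in KD1. The replicate block, which leaves KD1 replicates 1 and 2 only, gave 0.044 there for Hand1 and -0.011 for Cdx2 in KD1 against scrambled cells after retinoic acid, and so did those replicates alone. Leaving out 1 array gave, in undifferentiated KD1, -0.15 to 0.015 for Cdx2, -0.0026 to 0.25 for Gata2, -0.13 to 0.26 for Gata3 and -0.041 to 0.075 for Hand1. In KD2 against scrambled cells it gave -0.13 to 0.83 for Gata3, -0.55 to 0.97 for Tfap2c and -0.079 to 0.043 for Hand1. In KD2 against KD1 it gave -0.15 to 0.014 for Cdx2, -0.19 to 0.76 for Gata3, -0.98 to 0.54 for Tfap2c and -0.096 to 0.026 for Hand1. Under retinoic acid it gave -0.056 to 0.61 for Tead4 in scrambled cells and -0.091 to 0.038 for Hand1 in KD1 cells. For Cdx2 it gave -0.062 to 0.078 between KD1 and scrambled cells after retinoic acid and -0.012 to 0.16 for the difference in response. The cause was not tested.

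Counts over all tested genes moved more. The main count and its lowest and highest over the alternatives were 301, 26 and 1148 for undifferentiated KD1, 1302, 0 and 4463 for KD2, 351, 0 and 4550 for KD2 against KD1, 5079, 3332 and 7074 for retinoic acid in scrambled cells, 6596, 4416 and 8611 in KD1 cells, 2942, 1526 and 4988 for KD1 against scrambled cells after it, and 1024, 400 and 2548 for the difference in response. The highest count for KD2, in both comparisons, came without the array labelled KD2 replicate 1. All contrasts share 1 estimate of the spread, so the disagreeing KD2 arrays also shape the p-values and shares of the other comparisons. Array weights gave each KD2 array 0.137, against 1.17 to 2.06 for the other arrays. With both KD2 arrays dropped, 1057 genes were called for undifferentiated KD1 and 4821 for KD1 against scrambled cells after retinoic acid.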

Other observations

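A pattern chosen after the values were seen concerns KD1 replicate 2 after retinoic acid. Among the 4 KD1 arrays it was the highest for 8 of the 10 tested placental genes (80%) and for 5 of the 6 tested trophectoderm factors, against 31.1% of all tested genes. Its median difference from the mean of the other 3 arrays was 0.63 over the placental genes, 0.30 over the members and 0.03 over all tested genes.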
